A study of Caenorhabditis elegans with 9 samples.

Results

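RNA interference (RNAi) against atp-1, whose sequence name is H28O16.1, was compared with the empty vector L4440 in whole Caenorhabditis elegans hermaphrodites. The comparison was chosen by the labelled construct and takes 6 of the 9 libraries of the series. The H28O16.1 group holds 3 libraries of N2 worms, the wild type, that were 5 days old. The L4440 group holds 3 libraries of N2 hermaphrodites of the same age that received the vector without an insert. The remaining 3 libraries, of N2 hermaphrodites of that age given the B0395.3 construct, entered the same fit and served as a second group to set H28O16.1 against. Strain, sex and age are thus shared by all groups. Each library mixes all tissues of the worm and the embryos that mothers still hold. No label tells apart separate cultures from repeated libraries of one culture, so the p-values speak of library-to-library spread, which could be technical in part.

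ATP synthase is a rotary enzyme of the mitochondrial inner membrane. Its membrane part, Fo, lets protons flow back into the matrix, and this flow turns the F1 part, where alpha and beta subunits join phosphate to ADP. The gene atp-1 encodes the alpha subunit. L4440 is the standard vector for RNAi by feeding, in which worms eat bacteria that make double-stranded RNA of the target and then lose the matching mRNA. RNAi of respiratory chain and ATP synthase genes is known in this animal for slow growth and altered lifespan.

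Counts are given here as CPM, which is counts scaled for library size and composition. The 6 libraries held 31236614 to 40227801 counts. The targeted mRNA (chromosome I, bases 12652277 to 12654655) stood at 69.7, 66.9 and 75.4 CPM in the H28O16.1 libraries, against 1966, 2004 and 1864 CPM in the L4440 libraries (log2 fold change -4.78, SE 0.05, adjusted p = 2.93e-15). Every H28O16.1 library held far less of it than any L4440 library. Ribosomal RNA genes took 0.290%, 0.107% and 0.317% of the counts in H28O16.1, against 0.0869%, 0.102% and 0.0883% in L4440. Mitochondrially encoded genes took 0.427%, 0.407% and 0.301% in H28O16.1, against 0.639%, 0.647% and 0.666% in L4440. H28O16.1 replicate 3 stood apart from replicates 1 and 2 in muscle and basement membrane genes. The part of these shares in the results was not tested. Counts of list members that move by over 1.5 times without a library are given beside the result.

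RNAi against atp-1 changed most genes by a small amount and a set of weakly expressed genes by a large amount, the large changes being mostly falls. Of 14622 genes tested with edgeR's quasi-likelihood test, 8417 (57.6%) had an adjusted p under 0.05, with 3851 (26.3%) higher and 4566 (31.2%) lower in H28O16.1. These shares are the background for every count of list members given here, and the median log2 fold change of all tested genes was -0.0042. Without H28O16.1 replicate 3 the counts were 3897 higher and 4681 lower. The libraries of the groups did not overlap for 8982 genes (61.4%). Changes over 2-fold numbered 504 higher (3.45%) and 1226 lower (8.38%). Changes over 4-fold numbered 93 higher (0.636%) and 579 lower (3.96%). The filter on low counts let in a gene that was high enough in any group. Genes scarce in H28O16.1, members of lists among them, could thus enter through L4440 or B0395.3. The part of this in the excess of falls was not tested. The 579 genes that fell over 4-fold had a median level of 0.180 CPM in H28O16.1 and 1.63 CPM in L4440, while the median over all tested genes was 9.27 CPM in H28O16.1 and 10.01 CPM in L4440. The plot of change against level shows this: the spread widens downward toward low CPM, and the abundant genes lie close to no change.

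**Figure D1:**
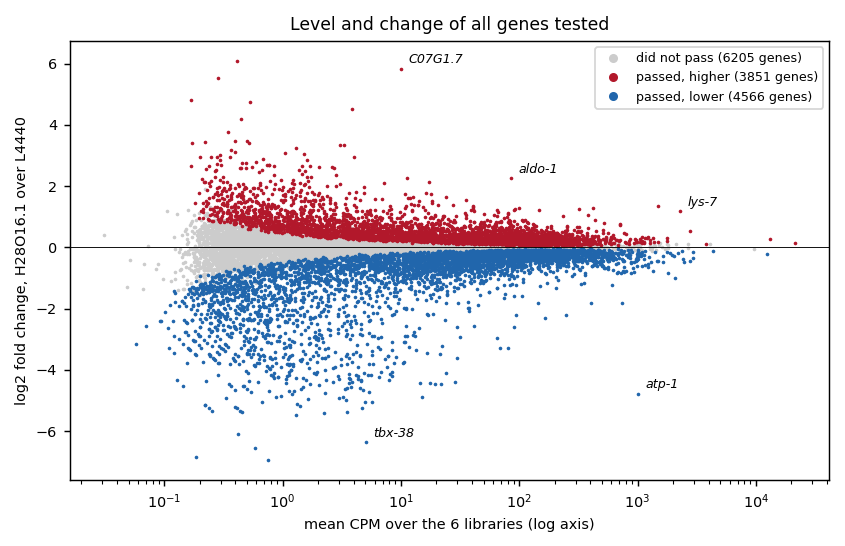
Log2 fold change of H28O16.1 over L4440 (vertical axis) against the mean CPM over the 6 libraries (horizontal log axis), with 1 point per tested gene. Red points passed the test and were higher in H28O16.1 (3851 genes), blue points passed and were lower (4566), grey points did not pass, and apart from the target atp-1 the largest falls are at low levels.

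Many of the steepest falls were in genes that are switched on in the early embryo. The gene pes-10 (bases 12846191 to 12847836 of chromosome II, minus strand) is known as one of the first genes that the embryo itself transcribes. It stood at 0.784, 0.784 and 0.660 CPM in the H28O16.1 libraries, against 13.98, 16.15 and 15.1 CPM in the L4440 libraries (log2 fold change -4.35, SE 0.12, adjusted p = 1.66e-11). The T-box transcription factor gene tbx-11 (bases 6045615 to 6046981 of chromosome III, minus strand) stood at 0.888, 0.690 and 0.709 CPM in H28O16.1 and 12.5, 13.8 and 12.04 CPM in L4440 (log2 fold change -4.06). In both genes each H28O16.1 library lay far below every L4440 library. Embryo markers were early zygotic genes of the tbx, end, med, pes and sdz names. Of 41 such genes 33 passed the filter on low counts, and 27 of these fell and 2 rose, with a median log2 fold change of -3.49. All 41 genes summed to 66.7 to 80.4 CPM in H28O16.1 and 179.6 to 188 CPM in L4440. Most of the H28O16.1 sum was sdz-27, which rose. It stood at 53.8, 59.9 and 64.2 CPM in H28O16.1 and 45.1, 45.9 and 44.5 CPM in L4440 (log2 fold change 0.39). The sum thus understates the falls of the 27 genes. In whole worms, fewer embryos and less of the embryo marker mRNAs per embryo cannot be told apart.

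Falls of similar size took in other genes known from embryos. The gene sepa-1 encodes a protein that binds maternal germ granule components and is cleared from embryos by autophagy. It stood at 2.61, 2.45 and 2.76 CPM in the H28O16.1 libraries, against 55.3, 54.6 and 56.0 CPM in the L4440 libraries (log2 fold change -4.40). The gene epg-2, which links such cargo to the autophagy machinery, stood at 12.3, 14.97 and 17.5 CPM in H28O16.1 and 153, 139 and 143 CPM in L4440 (log2 fold change -3.28, SE 0.08, adjusted p = 5.31e-12). For both, the highest H28O16.1 library was several-fold below the lowest L4440 library. Among genes with only a sequence name, Y25C1A.6, Y73C8C.8, F56A8.8, Y39G10AL.1, Y106G6D.2, Y71A12B.11, R11.4 and B0281.5 fell by 3.77 to 4.25 on the log2 scale. These were named for the size of their falls alone, and whether embryos express them was not examined.

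Spread within L4440 was wide in some of the steep falls. The short-chain dehydrogenase gene dhs-26 stood at 0.418, 0.439 and 0.783 CPM in H28O16.1 and 6.71, 14.8 and 8.52 CPM in L4440 (log2 fold change -4.16). The cuticle collagen gene col-93 stood at 1.54, 1.41 and 1.49 CPM in H28O16.1 and 27.1, 23.4 and 8.95 CPM in L4440 (log2 fold change -3.73). In both, the L4440 libraries differed among themselves by more than 2-fold, and the lowest of them still lay well above all H28O16.1 libraries.

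Most tested F-box genes of the fbxb family fell. F-box proteins choose the substrates of ubiquitin ligases, and Skp1-related proteins (skr genes) join them to the cullin CUL-1. Of 94 tested fbxb genes 91 fell and 1 rose, with a median of -3.16. Of 34 tested fbxc genes 24 fell and 2 rose (median -1.34). Of 118 tested fbxa genes 22 fell and 28 rose (median 0.11). The filter on low counts left out 10 fbxb genes, 14 fbxc genes and 52 fbxa genes. Members scarce in H28O16.1 could pass it through the groups where they were higher. Those left out went both ways, as in fbxb-79 (23 counts in H28O16.1, 3 in L4440) and fbxb-16 (1 and 25).

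The fbxb mRNAs were scarce, with means of 0.00815 to 9.54 CPM in H28O16.1 and 0.229 to 17.2 CPM in L4440. As an example, fbxb-103 stood at 0.444, 0.377 and 0.440 CPM in the H28O16.1 libraries, against 9.05, 8.21 and 9.15 CPM in the L4440 libraries (log2 fold change -4.37, SE 0.13, adjusted p = 3.14e-11). The tested fbxb genes together summed to 33.7 to 40.97 CPM in H28O16.1 and 234 to 271 CPM in L4440, with no overlap. At least 90 falls passed with any 1 of the 6 libraries left out. The 1 rise did not pass without H28O16.1 replicate 2 or L4440 replicate 3, nor with DESeq2 or with only the libraries of the pair compared.

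Among 19 tested skr genes 13 fell and 1 rose. The gene skr-7 stood at 15.4, 15.1 and 14.5 CPM in H28O16.1 and 116, 111.8 and 118 CPM in L4440 (log2 fold change -2.95, SE 0.04, adjusted p = 1.51e-14). Log2 fold changes, in brackets here and in the lists of genes that follow, were also steep in skr-9 (-4.90), skr-8 (-4.47), skr-10 (-4.46), skr-13 (-3.11), skr-14 (-2.37), skr-15 (-1.81), skr-21 (-1.67) and skr-12 (-1.47). The broadly acting skr-1 had 275 CPM in H28O16.1 and 263 CPM in L4440 (log2 fold change 0.06, adjusted p = 0.0554), and skr-17 was the member that rose (0.25). Rises numbered 3 without H28O16.1 replicate 3 and 2 without L4440 replicate 1 or 2. The gene cul-1 itself fell, with 137 ± 0.649 CPM in H28O16.1, against 203 ± 1.52 CPM in L4440 (SD, n = 3 each).

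Of 77 tested cullin, BTB and MATH adaptor genes, 28 rose and 17 fell. Steep falls in that list were bath-31 (-4.62), btb-11 (-4.29), btb-8 (-4.28), btb-10 (-4.18) and btb-6 (-1.34). Reads of close copies in the skr, fbx, btb, bath, tbx, col and msp families may have been assigned to the wrong copy, which leaves the values of single members uncertain. The plot of selected genes by library shows how far the groups lie apart in the genes with the clearest changes.

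**Figure D2:**
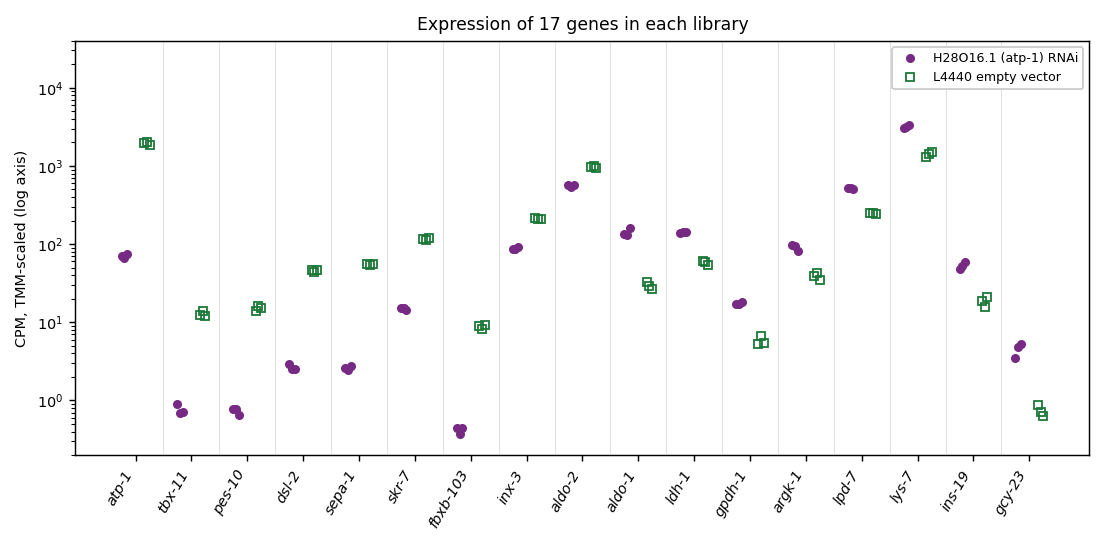
CPM of 17 genes in each library on a log axis, with the 3 H28O16.1 libraries left of the 3 L4440 libraries for each gene. In each of these genes the groups do not overlap: from atp-1 to aldo-2 the H28O16.1 libraries lie lower, and from aldo-1 to gcy-23 they lie higher.

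Several Notch pathway genes fell. Notch receptors at the cell surface are bound by ligands of the DSL class on neighbouring cells, and proteases then release the part that acts in the nucleus. Of 19 tested members 11 fell and 3 rose, with a median of -0.30, and these counts were the same with any 1 library left out. The ligand gene dsl-2 (bases 1202651 to 1204970 of chromosome IV, minus strand) stood at 2.90, 2.54 and 2.54 CPM in H28O16.1 and 46.8, 43.7 and 46.98 CPM in L4440 (log2 fold change -4.10, SE 0.07, adjusted p = 1.37e-13). The ligand gene lag-2 stood at 0.340, 0.282 and 0.367 CPM in the H28O16.1 libraries, against 2.86, 2.81 and 3.31 CPM in the L4440 libraries (log2 fold change -3.16), and dsl-1, of the same class, fell as well (-5.38). The receptor gene lin-12 stood at 3.58, 2.86 and 3.498 CPM in H28O16.1 and 13.4, 13.1 and 12.6 CPM in L4440 (log2 fold change -1.97). Ligands and receptor were thus low in each H28O16.1 library. The receptor gene of the germ line, glp-1, had 326 CPM in H28O16.1 and 319.9 CPM in L4440 (log2 fold change 0.03, adjusted p = 0.536). Among genes of the proteases, sup-17 (-0.39), adm-4 (-0.71), sel-12 (-0.74) and pen-2 (-0.50) fell, while aph-1 (0.31) and hop-1 (0.23) rose.

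Homeobox genes, which encode developmental transcription factors, included deep falls. Of 43 tested homeobox genes 19 fell and 4 rose, and 7 rose without H28O16.1 replicate 1. The gene ceh-32, of the sine oculis family, stood at 2.72, 4.14 and 3.67 CPM in the H28O16.1 libraries, against 39.9, 35.96 and 41.6 CPM in the L4440 libraries (log2 fold change -3.49). The gene ceh-43, the homologue of Distal-less, stood at 2.14, 3.48 and 3.77 CPM in H28O16.1 and 20.1, 16.9 and 19.3 CPM in L4440 (log2 fold change -2.58). In both, the H28O16.1 libraries lay several-fold under the L4440 libraries. Other falls were ceh-86 (-2.97), ceh-40 (-1.60), a homologue of extradenticle, ceh-41 (-0.93) and ceh-83 (-0.89). Of 12 tested basic helix-loop-helix genes 3 fell and 2 rose, with hlh-2, the homologue of the E proteins, at 36.1 ± 2.29 CPM in H28O16.1, against 63.2 ± 1.34 CPM in L4440 (SD, n = 3 each). In that list 5 fell without H28O16.1 replicate 3, and 4 and 1 rose without H28O16.1 replicates 1 and 2. Of 9 tested GATA factor genes 2 fell and 1 rose, and the rise was lost without H28O16.1 replicate 2, L4440 replicate 2 or L4440 replicate 3, while 2 rose without H28O16.1 replicate 1.

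Other factor families were mixed. Of 25 tested bZIP genes 11 rose and 7 fell. The gene zip-8 stood at 2.51, 2.29 and 2.84 CPM in H28O16.1 and 22.2, 15.7 and 19.2 CPM in L4440 (log2 fold change -2.89). The gene xbp-1, a regulator of the endoplasmic reticulum stress response, went the other way and stood at 244, 240.1 and 242 CPM in H28O16.1 and 182, 181 and 178 CPM in L4440 (log2 fold change 0.43). The genes zip-2 (0.48), cebp-1 (0.60) and zip-10 (0.67) also rose. Of 182 tested nuclear hormone receptor genes 40 rose and 43 fell. The embryonic receptor gene nhr-2 stood at 12.7, 13.6 and 13.5 CPM in the H28O16.1 libraries, against 49.9, 45.2 and 46.1 CPM in the L4440 libraries (log2 fold change -1.83, SE 0.05, adjusted p = 1.88e-11). The genes nhr-78 (-1.33), nhr-47 (-0.99) and nhr-4 (-0.89) fell as well, and nhr-11 (1.01) rose.

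Other signalling lists changed by smaller amounts. In the insulin pathway 2 rose and 9 fell of 16 tested genes, and 4 rose with scaling by library totals alone. The receptor gene daf-2 stood at 125, 127 and 147 CPM in H28O16.1 and 174, 187 and 190.4 CPM in L4440 (log2 fold change -0.47). The kinase gene pdk-1 (-0.77), the gene of the opposing phosphatase, daf-18 (-0.60), and the 14-3-3 genes ftt-2 (-0.44) and par-5 (-0.37) fell. The transcription factor gene daf-16 had 171 CPM in H28O16.1 and 162 CPM in L4440 (adjusted p = 0.0642). In the Wnt list 5 rose and 12 fell of 27, with falls of the receptor gene cam-1 (-0.73), the TCF gene pop-1 (-0.53), mom-4 (-0.52) and dsh-1 (-0.65) and a rise of the beta-catenin gene wrm-1 (0.26). In the TGF-beta list 5 rose and 7 fell of 19, with falls of the receptor genes daf-1 (-0.58) and daf-4 (-0.41) and the ligand gene unc-129 (-1.07) and a rise of the ligand gene daf-7 (0.70). In the list of the EGF receptor and Ras 5 rose and 6 fell of 15, with a fall of the adaptor gene sem-5 (-0.66) and rises of the Ras gene let-60 (0.20) and the receptor gene let-23 (0.25).

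Germ line and oocyte markers differed by far less than embryo markers. Of 12 germ line markers 5 rose and 4 fell (median 0.02), and their log2 fold changes lay between -0.26 (fbf-2) and 0.29 (him-3). The meiotic chromosome gene him-3 stood at 173, 169.7 and 158 CPM in H28O16.1 and 134, 137 and 139.9 CPM in L4440. Of 11 oocyte markers 8 fell and 1 rose, with a summed level of 14198 to 15119 CPM in H28O16.1 and 16503 to 17449 CPM in L4440. The falls included oma-2 (-0.77), cbd-1 (-0.35), oma-1 (-0.26) and the yolk receptor gene rme-2 (-0.17), and the rise was the translational repressor gene puf-5 (0.23). Of 16 eggshell genes 10 fell and 3 rose. Their falls numbered 6 without L4440 replicate 2 or with scaling by library totals alone, and 5 rose with library totals alone or with no filter on low counts.

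Of 37 sperm markers 17 were tested, and 14 of these fell and 1, spe-41, rose (1.96). The genes spe-9 (0.35) and spe-11 (0.23) did not pass. All 37 summed to 10.3 to 13.9 CPM in H28O16.1 and 11.5 to 13.96 CPM in L4440, which overlap. The msp genes, which encode the major sperm protein, had means of 0.0645 to 0.225 CPM in H28O16.1 and 0.308 to 0.603 CPM in L4440, so these falls rest on few reads.

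Somatic markers went in both directions. Of 8 intestine markers 4 rose and 3 fell, with cpr-1 (-1.17), pept-1 (-0.92), a peptide transporter gene, and ifb-2 (0.66), an intermediate filament gene, changing most. Rises numbered 1 without L4440 replicate 3 and 2 without H28O16.1 replicate 2. Of 10 hypodermis and seam markers 5 fell and 2 rose (median -0.62). Here 2 fell without L4440 replicate 1 and 3 without H28O16.1 replicate 1, while 0 rose without L4440 replicate 3 and 1 without H28O16.1 replicate 3 or L4440 replicate 1. Of 8 pharynx markers 3 fell and 0 rose. Of 17 neuron markers 3 rose and 4 fell, and 2 fell with library totals alone. Of 7 somatic gonad markers 1 rose and 2 fell, and 3 rose without H28O16.1 replicate 1. Of 5 glia markers 2 rose and 0 fell, and 1 fell without H28O16.1 replicate 3. The rises numbered 1 without H28O16.1 replicate 3, L4440 replicate 1 or L4440 replicate 3. Of 3 coelomocyte markers 1 rose, which was 2 without H28O16.1 replicate 2 or L4440 replicate 2.

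Of 10 body wall muscle markers 4 rose and 0 fell. The thin filament gene pat-10 stood at 288, 305 and 314 CPM in H28O16.1 and 224, 207 and 187 CPM in L4440 (log2 fold change 0.56), with no overlap. The myosin heavy chain gene unc-54 stood at 194, 225 and 359 CPM in H28O16.1 and 268, 269 and 218 CPM in L4440 (log2 fold change 0.05, adjusted p = 0.838). In unc-54, H28O16.1 replicate 3 lay above and replicate 1 below the L4440 range. The muscle markers summed to 1042 to 1480.0 CPM in H28O16.1 and 924 to 1110.2 CPM in L4440. Without H28O16.1 replicate 3, 1 muscle marker rose and 3 fell. Rises numbered 1 without L4440 replicate 3 and 2 without L4440 replicate 2 or with DESeq2, and 2 markers fell with no filter on low counts. The plot of marker genes sets these small shifts beside those of embryo and sperm markers.

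**Figure D3:**
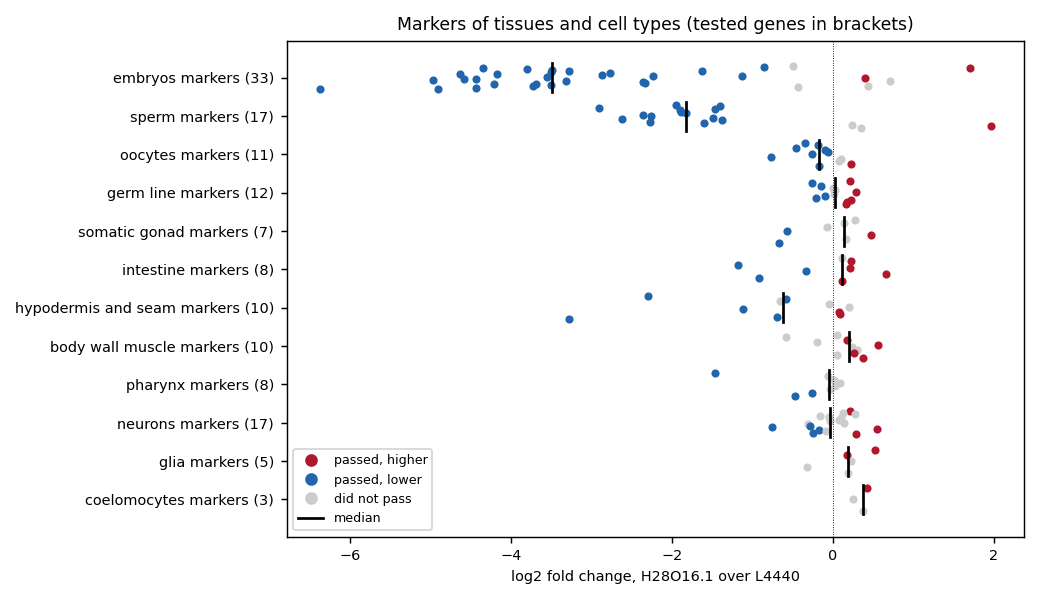
Log2 fold change of H28O16.1 over L4440 for each tested marker gene, in rows by tissue with the number tested in brackets. Red and blue points passed the test, grey points did not, and black bars are medians. Most embryo and sperm markers lie far to the left of the other tissues, whose medians are between -0.62 and 0.37.

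Cell division genes fell more often than they rose, mostly by small amounts. In DNA replication 8 rose and 20 fell of 35 (median -0.15). The topoisomerase gene top-2 stood at 452, 456 and 469.7 CPM in the H28O16.1 libraries, against 766, 781 and 769 CPM in the L4440 libraries (log2 fold change -0.75, SE 0.03, adjusted p = 9.38e-10). The ribonucleotide reductase genes rnr-1 (-0.52) and rnr-2 (-0.43) and the licensing gene cdt-1 (-0.45) fell too. In mitosis and the cell cycle 15 rose and 26 fell of 63 (median -0.05), beside 26.3% higher and 31.2% lower among all genes tested. The kinesin-5 gene bmk-1 stood at 111, 114.9 and 113 CPM in H28O16.1 and 185, 182 and 182 CPM in L4440 (log2 fold change -0.70). The genes hcp-6 (-0.51), of condensin, bub-1 (-0.44), of the spindle checkpoint, and zen-4 (-0.41), a kinesin of cytokinesis, were lower as well. Among tubulin and actin genes 2 rose and 9 fell of 16, with falls of tbb-1 (-0.64), tba-1 (-0.47) and act-2 (-0.52). The rises in that list numbered 1 without L4440 replicate 1 and 4 with no filter on low counts. In the list of synMuv, Polycomb-related and heterochromatin genes 4 rose and 10 fell of 21, with mes-6 (-0.45), set-2 (-0.34) and hpl-1 (-0.68) lower and lin-54 (0.28) higher.

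Gap junction genes separated into a few deep falls and more numerous rises. Of 25 innexin genes 9 rose and 3 fell, and 5 fell without H28O16.1 replicate 3. The gene inx-3 stood at 85.6, 87.4 and 93.2 CPM in the H28O16.1 libraries, against 215, 208 and 210.0 CPM in the L4440 libraries (log2 fold change -1.25). The gene inx-2 stood at 26.9, 28.9 and 33.2 CPM in H28O16.1 and 82.2, 79.6 and 84.7 CPM in L4440 (log2 fold change -1.47). All H28O16.1 libraries were thus under 0.5 of any L4440 library in both. The genes inx-7 (0.54), inx-21 (0.38), inx-9 (0.47) and eat-5 (1.79) rose, and the rises of inx-15 and inx-17 passed in only 2 of the 6 fits that left out a library.

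Genes that build ribosomes rose, while splicing genes fell. Of 19 genes of the nucleolus and ribosome assembly 15 rose and 1 fell, with a median of 0.29. The gene lpd-7 (bases 7573350 to 7575263 of chromosome III, plus strand) is the homologue of pescadillo, which assembles the large ribosomal subunit. It stood at 519.6, 516 and 511 CPM in the H28O16.1 libraries, against 252, 253 and 246 CPM in the L4440 libraries (log2 fold change 1.04, SE 0.03, adjusted p = 5.31e-12). The nucleostemin gene nst-1 stood at 402, 400.1 and 383 CPM in H28O16.1 and 275, 268 and 268 CPM in L4440 (log2 fold change 0.55). The gene rpoa-1, of the largest subunit of RNA polymerase I, stood at 60.9, 59.6 and 62.8 CPM in H28O16.1 and 43.7, 40.2 and 40.5 CPM in L4440 (log2 fold change 0.56). In each, the lowest H28O16.1 library was above the highest L4440 library. The genes rbd-1 (0.63), pro-3 (0.52), nol-16 (0.48), pro-2 (0.43) and rpoa-2 (0.33) rose as well, and nol-56, of the small nucleolar RNPs, fell (-0.20). Without L4440 replicate 3 the falls numbered 2. The share of ribosomal RNA was also higher in H28O16.1 replicates 1 and 3, and its part here was not tested.

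Of 38 genes of the spliceosome and SR proteins 29 fell and 5 rose (median -0.18), and 26 to 28 fell with any 1 library left out. The helicase gene snrp-200, the homologue of Brr2, stood at 268, 248 and 278 CPM in the H28O16.1 libraries, against 408, 422 and 399 CPM in the L4440 libraries (log2 fold change -0.63, SE 0.04, adjusted p = 2.81e-08). The SR protein gene rsp-1 stood at 91.8, 87.0 and 82.3 CPM in H28O16.1 and 139, 134 and 127 CPM in L4440 (log2 fold change -0.61). All 8 rsp genes, picked out after their values were seen, fell in every fit that left out 1 library, by 0.13 to 0.61 on the log2 scale in the full fit. The U2AF gene uaf-2 (-0.45) and the Sm protein gene snr-2 (-0.50) were lower too. Among nuclear pore and import genes 7 rose and 15 fell of 32, with imb-2 (-0.48) and ima-3 (-0.40) lower and npp-2 (0.34) and imb-3 (0.28) higher.

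Translation genes went both ways. Of 41 initiation and elongation factors 20 fell and 13 rose. The scaffold gene ifg-1 (eIF4G) stood at 391, 392 and 418 CPM in the H28O16.1 libraries, against 595, 605 and 613 CPM in the L4440 libraries (log2 fold change -0.59). The eIF4A gene inf-1 (-0.50) and the gene eif-2Bepsilon (-0.51) were lower as well, and the eIF3 genes eif-3.I (0.44) and eif-3.B (0.41) were higher. Of 32 aminoacyl-tRNA synthetase genes 10 rose and 9 fell. The deepest falls among those named were in genes of mitochondrial enzymes. The gene iars-2 stood at 63.2, 54.7 and 51.7 CPM in H28O16.1 and 134, 130.2 and 133 CPM in L4440 (log2 fold change -1.23). The gene nars-2 stood at 32.7, 31.4 and 27.1 CPM in H28O16.1 and 59.1, 62.0 and 57.7 CPM in L4440 (log2 fold change -0.97). In both, no H28O16.1 library reached the L4440 range, and dars-2 (-0.65) fell by less. The cytosolic sars-1 (0.40) and cars-1 (0.37) rose, and rars-1 (-0.29) fell.

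Of 80 tested cytosolic ribosomal protein genes 26 rose and 13 fell, with rps-0 (0.29) and rpl-39 (0.32) among the rises and rps-2 (-0.40) and rps-13 (-0.39) among the falls. These counts depended on single libraries. Without H28O16.1 replicate 3, 46 rose and 10 fell. Without H28O16.1 replicate 1, 17 rose and 22 fell. Without L4440 replicate 3, 15 rose and 14 fell. The plot of gene lists places these counts among those of the other lists.

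**Figure D4:**
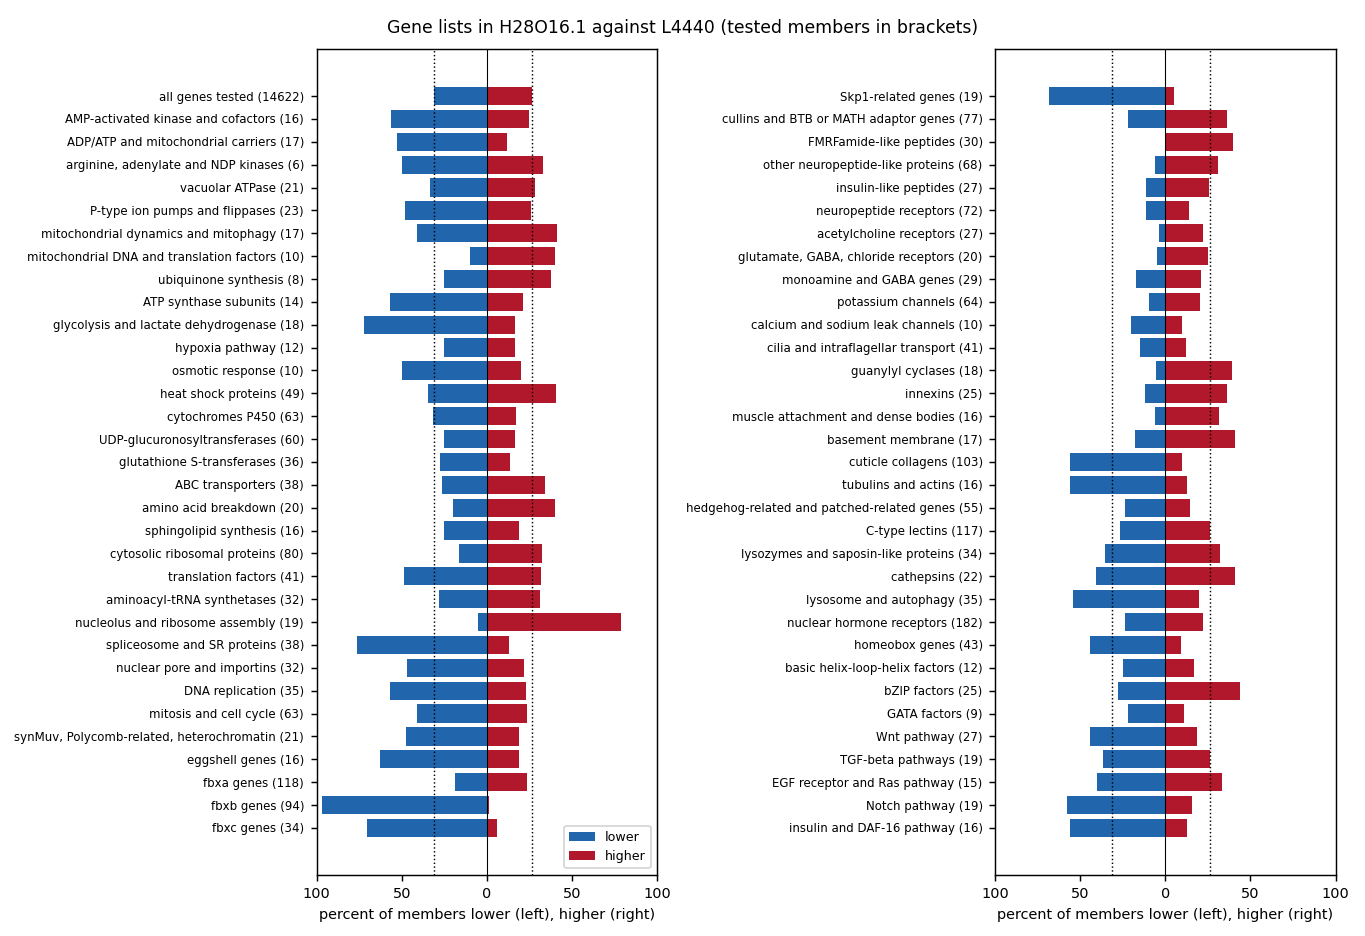
Percent of the tested members of each gene list that passed the test and were lower (blue, left) or higher (red, right) in H28O16.1 against L4440, with the number tested in brackets. Dotted lines mark the shares of all tested genes, 31.2% lower and 26.3% higher, and the longest blue bar is that of the fbxb genes and the longest red bar that of the nucleolus list.

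In energy metabolism the aldolase genes moved apart. Aldolase splits a sugar bisphosphate in glycolysis, a list in which 3 rose and 13 fell of 18. The gene aldo-1 (bases 13563346 to 13564937 of chromosome III, minus strand) stood at 135, 130.3 and 159 CPM in the H28O16.1 libraries, against 32.5, 29.5 and 26.4 CPM in the L4440 libraries (log2 fold change 2.26, SE 0.08, adjusted p = 1.19e-10). Its partner aldo-2 averaged 558 ± 16.7 CPM in H28O16.1, against 973 ± 24.5 CPM in L4440 (SD, n = 3 each; log2 fold change -0.80), without overlap. Per kb of exon, the level of aldo-1 was 113 CPM per kb in H28O16.1 and 23.5 CPM per kb in L4440, and that of aldo-2 was 410.3 CPM per kb in H28O16.1 and 716 CPM per kb in L4440. The less abundant aldolase gene rose and the more abundant one fell, and aldo-2 was the more abundant in both groups. The lactate dehydrogenase gene ldh-1, whose enzyme regenerates NAD+, stood at 139, 142 and 143 CPM in H28O16.1 and 60.3, 59.4 and 53.8 CPM in L4440 (log2 fold change 1.29, SE 0.05, adjusted p = 1.33e-10). Phosphofructokinase pfk-1.1 (-0.55), pyruvate kinase pyk-1 (-0.43) and the dehydrogenases gpd-1 (-0.65) and gpd-4 (-0.86) were lower. The glycogen phosphorylase gene pygl-1 stood at 963, 941 and 957 CPM in H28O16.1 and 1507, 1535 and 1466 CPM in L4440, and its mean fell by 549 CPM.

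Genes that buffer or carry ATP also differed. The arginine kinase gene argk-1, whose enzyme stores phosphate bonds as phosphoarginine, stood at 96.9, 94.6 and 80.6 CPM in the H28O16.1 libraries, against 38.7, 42.7 and 35.1 CPM in the L4440 libraries (log2 fold change 1.22, SE 0.12, adjusted p = 1.32e-06). The nucleoside diphosphate kinase gene ndk-1 stood at 1157, 1069 and 988 CPM in H28O16.1 and 1516, 1556 and 1450.3 CPM in L4440 (log2 fold change -0.49). Phosphagen and nucleotide kinases thus had opposite members, and the adenylate kinase gene let-754 (-0.29) was lower. Of 17 genes of ADP/ATP translocases and other mitochondrial carriers 9 fell and 2 rose. The rises numbered 1 without H28O16.1 replicate 1 or 2 or L4440 replicate 2 or 3, and 5 with library totals alone. The abundant translocase gene ant-1.1 stood at 2884, 2792 and 2689.9 CPM in H28O16.1 and 3147, 3197 and 2976 CPM in L4440 (log2 fold change -0.16, SE 0.04, adjusted p = 0.00391). The carrier genes mtch-1 (-0.57), ant-1.3 (-1.38) and slc-25A18.2 (-0.78) fell by more.

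AMP-activated kinase senses low ATP, and of 16 genes of the kinase and its partners 4 rose and 9 fell. The catalytic subunit gene aak-2 stood at 35.2, 34.1 and 40.97 CPM in H28O16.1 and 50.3, 51.5 and 48.7 CPM in L4440 (log2 fold change -0.45). The genes aak-1 (-0.35), aakb-1 (-0.52) and the upstream kinase gene par-4 (-0.27) fell, and the regulatory genes aakg-5 (0.21) and aakg-1 (0.22) and the coactivator gene crtc-1 (0.34) rose. Of 21 genes of the vacuolar ATPase 6 rose and 7 fell, with unc-32 at 224, 227 and 229 CPM in H28O16.1 and 299.5, 294 and 297 CPM in L4440 (log2 fold change -0.39). The rises numbered 2 without H28O16.1 replicate 2 or L4440 replicate 3 and 3 without replicate 1 of either group, and 4 fell with library totals alone. Of 23 P-type pumps and flippases 6 rose and 11 fell, with catp-6 (-0.28) and the copper pump gene cua-1 (-0.18) lower and the sodium pump genes eat-6 (0.17) and nkb-3 (0.25) higher. These falls numbered 7 without H28O16.1 replicate 2, and 6 without L4440 replicate 2 or with library totals alone.

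Mitochondrial genes outside the respiratory chain included opposite members. Of 17 genes of mitochondrial dynamics, cristae and mitophagy 7 rose and 7 fell. The mitophagy receptor gene dct-1 stood at 11.9, 11.3 and 12.4 CPM in the H28O16.1 libraries, against 22.9, 24.4 and 26.96 CPM in the L4440 libraries (log2 fold change -1.05, SE 0.07, adjusted p = 2.28e-08). The mitofilin gene immt-1, of cristae junctions, stood at 44.4, 45.02 and 49.1 CPM in H28O16.1 and 70.5, 73.4 and 68.5 CPM in L4440 (log2 fold change -0.61). Both were low in all H28O16.1 libraries, whereas the inner membrane genes moma-1 (0.32), chch-3 (0.32) and stl-1 (0.34) and the fission factor gene mff-2 (0.52) rose. Among 10 factors for mitochondrial DNA, RNA and translation 4 rose and 1 fell. The gene gfm-1, of the mitochondrial elongation factor G, stood at 144, 138 and 136 CPM in H28O16.1 and 84.8, 86.2 and 85.3 CPM in L4440 (log2 fold change 0.71). The genes mma-1 (0.40), tufm-2 (0.38) and the mitochondrial RNA polymerase gene rpom-1 (0.26) rose, and the DNA polymerase gene polg-1 (-0.20) fell. Of 8 ubiquinone synthesis genes 3 rose and 2 fell, with coq-3 (-0.82) changing most. Of 14 ATP synthase subunit genes 8 fell, the target among them, and 3 rose. Apart from atp-1, the called changes lay between -0.58 (asg-2) and 0.24 (F58F12.1).

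Amino acid and lipid lists moved in both directions. Of 20 genes of tyrosine, tryptophan, branched-chain and proline breakdown 8 rose and 4 fell, and 8 fell without H28O16.1 replicate 3. The genes haao-1 (0.46) and tdo-2 (0.27), of tryptophan breakdown, rose, and fah-1 (-0.41), of tyrosine breakdown, fell. Of 16 sphingolipid genes 3 rose and 4 fell, and 5 rose without H28O16.1 replicate 3 or with library totals alone. The ceramide synthase genes hyl-1 (0.32) and lagr-1 (1.21) rose, and the sphingomyelinase genes asm-3 (-1.41) and asm-2 (-0.62) fell.

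Stress genes divided within their lists. In the osmotic list 2 rose and 5 fell of 10, and 3 fell without H28O16.1 replicate 2. The glycerol synthesis gene gpdh-1 (bases 14075837 to 14078211 of chromosome I, plus strand) stood at 17.1, 17.1 and 17.9 CPM in the H28O16.1 libraries, against 5.31, 6.60 and 5.39 CPM in the L4440 libraries (log2 fold change 1.59, SE 0.09, adjusted p = 8.19e-09). The inositol transporter gene hmit-1.1 stood at 16.5, 16.5 and 17.2 CPM in H28O16.1 and 4.54, 4.71 and 5.69 CPM in L4440 (log2 fold change 1.75). Both are known to be induced by high salt and were the 2 rises of the list. The partner gene gpdh-2 (-0.34) and the kinase gene wnk-1 (-0.31) fell. In the hypoxia list 2 rose and 3 fell of 12, with the eEF2 kinase gene efk-1 (0.42) and nhr-57 (0.63) higher and cysl-2 (-0.49) lower. Hypoxia falls numbered 5 without H28O16.1 replicate 3 and 1 with library totals alone. Of 49 heat shock protein genes 20 rose and 17 fell, with dnj-26 (0.67) and dnj-12 (0.37) higher and dnj-27 (-1.1997) and the heat shock factor gene hsf-1 (-0.41) lower. The gene sip-1, of a small heat shock protein of oocytes and embryos, stood at 1501, 1377 and 1261 CPM in H28O16.1 and 2743, 2849.7 and 2674 CPM in L4440 (log2 fold change -0.998).

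Cytochrome P450 and conjugation enzyme genes went in both directions. Of 63 cytochrome P450 genes 11 rose and 20 fell, and 7 rose with DESeq2. The genes cyp-35A2 (-1.52), cyp-35C1 (-1.31), cyp-25A1 (-1.16) and cyp-25A2 (-1.04) fell, and cyp-14A5 (1.33) and cyp-13A2 (1.21) rose. Among UDP-glucuronosyltransferases 10 rose and 15 fell of 60, with ugt-66 (-2.71) lower and ugt-9 (1.73) higher. Among glutathione S-transferases 5 rose and 10 fell of 36, with gst-32 (1.96) and gst-43 (0.83) higher and gst-4 (-0.82) lower. Among ABC transporters 13 rose and 10 fell of 38. The P-glycoprotein gene pgp-4, of a likely exporter, stood at 4.18, 4.05 and 5.01 CPM in the H28O16.1 libraries, against 17.6, 17.7 and 17.9 CPM in the L4440 libraries (log2 fold change -1.999, SE 0.09, adjusted p = 7.15e-10), with no overlap between the groups.

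Peptide genes rose more often than they fell, while of all tested genes 26.3% rose and 31.2% fell. Of 30 FMRFamide-like peptide genes 12 rose and 0 fell, with a median of 0.25, and 10 to 15 rose with any 1 library left out. The gene flp-10 stood at 7.78, 7.31 and 7.61 CPM in the H28O16.1 libraries, against 5.04, 5.03 and 5.36 CPM in the L4440 libraries (log2 fold change 0.56, SE 0.11, adjusted p = 0.000836). Other rises were flp-27 (0.59), flp-2 (0.55), flp-18 (0.39), flp-14 (0.34) and flp-1 (0.34). Of 68 other neuropeptide-like protein genes 21 rose, not far from the share of all genes, and 4 fell (median 0.24). The gene nlp-39 stood at 16.7, 15.2 and 15.2 CPM in H28O16.1 and 6.58, 5.88 and 6.22 CPM in L4440 (log2 fold change 1.33, SE 0.08, adjusted p = 1.4e-08). The median of the neuron markers, for comparison, was -0.04. Among 72 neuropeptide receptor genes 10 rose and 8 fell, with dmsr-3 (1.68) and npr-42 (1.09) higher and dmsr-4 (-1.35) lower. The receptor rises numbered 16 without H28O16.1 replicate 1, and with DESeq2 5 rose and 5 fell.

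Of 27 tested insulin-like peptide genes 7 rose, close to the share of all genes, and 3 fell. With DESeq2 4 rose. The gene ins-19 (bases 3126037 to 3126441 of chromosome II, minus strand) stood at 47.8, 53.2 and 58.7 CPM in the H28O16.1 libraries, against 18.6, 15.5 and 21.1 CPM in the L4440 libraries (log2 fold change 1.53, SE 0.12, adjusted p = 1.79e-07), with no overlap. The genes ins-5 (1.395) and ins-17 (0.55) rose too, and ins-34 (-1.41) and ins-2 (-1.32) fell. All 39 genes of the list summed to 98.7 to 109 CPM in H28O16.1 and 51.2 to 53.7 CPM in L4440. Most of this difference lay in ins-19 and ins-7, whose means were higher by 34.8 and 17.9 CPM in H28O16.1.

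Sensory cyclase genes were among the rises. Of 18 tested guanylyl cyclase genes 7 rose and 1 fell, and 2 fell without H28O16.1 replicate 3. The gene gcy-23 stood at 3.53, 4.80 and 5.28 CPM in the H28O16.1 libraries, against 0.880, 0.722 and 0.632 CPM in the L4440 libraries (log2 fold change 2.61, SE 0.19, adjusted p = 8.27e-08). The gene gcy-18 stood at 4.94, 6.43 and 6.46 CPM in H28O16.1 and 2.12, 3.05 and 2.63 CPM in L4440 (log2 fold change 1.19, SE 0.14, adjusted p = 1.01e-05). Both encode receptor cyclases of the thermosensory neuron AFD. The third AFD cyclase gene, gcy-8, had 1.06 CPM in H28O16.1 and 0.677 CPM in L4440 (log2 fold change 0.65, adjusted p = 0.0304), a call lost without H28O16.1 replicate 1 or L4440 replicate 1 or 2. The soluble cyclase genes gcy-35 (1.45) and gcy-37 (1.37), of oxygen-sensing neurons, rose, and gcy-11 (-0.78) fell.

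Genes of receptors and channels went in both directions. Among acetylcholine receptor genes 6 rose and 1 fell of 27, with acr-9 (1.89), eat-2 (1.68) and acr-15 (0.61) higher. Among glutamate, GABA and chloride channel receptors 5 rose and 1 fell of 20. The glutamate-gated chloride channel gene avr-14 stood at 3.97, 4.33 and 4.97 CPM in the H28O16.1 libraries, against 2.04, 2.33 and 1.72 CPM in the L4440 libraries (log2 fold change 1.13). The GABA receptor gene unc-49, of muscle, stood at 4.99, 5.80 and 7.31 CPM in H28O16.1 and 3.91, 3.37 and 3.97 CPM in L4440 (log2 fold change 0.69). The groups were separate in both. Of 64 potassium channel genes 13 rose and 6 fell, with twk-42 (0.98) and twk-32 (0.85) higher and kqt-1 (-1.35), shw-1 (-0.59) and twk-2 (-0.75) lower, and 8 rose without H28O16.1 replicate 3. Of 10 calcium and sodium leak channel genes 1 rose and 2 fell, and 5 fell without H28O16.1 replicate 3 and 2 rose without H28O16.1 replicate 1.

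Among genes of monoamine and GABA signalling 6 rose and 5 fell of 29. The octopamine synthesis gene tbh-1 stood at 243 ± 21.4 CPM in H28O16.1, against 370.1 ± 9.78 CPM in L4440 (SD, n = 3 each; log2 fold change -0.61). The dopamine synthesis gene cat-2 (-1.36) fell and the dopamine receptor gene dop-2 (0.66) rose. Among genes of cilia 5 rose and 6 fell of 41, with osm-1 (-0.68) and ift-43 (-0.72) lower and che-11 (0.95) higher, and 3 rose with DESeq2.

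Basement membrane genes went in both directions. Of 17 basement membrane genes 7 rose and 3 fell. The type IV collagen gene emb-9 stood at 68.9, 80.2 and 116 CPM in the H28O16.1 libraries, against 65.2, 65.4 and 52.8 CPM in the L4440 libraries (log2 fold change 0.54, SE 0.15, adjusted p = 0.00748). The papilin gene mig-6 stood at 80.8, 90.0 and 149.8 CPM in H28O16.1 and 65.5, 64.6 and 55.3 CPM in L4440 (log2 fold change 0.79). In both, H28O16.1 replicate 3 was the highest library and replicate 1 lay nearest the L4440 range. The genes of fibulin, fbl-1 (0.68), hemicentin, him-4 (0.60), and SPARC, ost-1 (0.56), rose as well. The rise of the other type IV collagen gene, let-2 (0.51), did not pass without L4440 replicate 3. Falls in this list numbered 1 without replicate 1 of either group and 5 without H28O16.1 replicate 3.

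More cuticle collagen genes fell than rose. Of 156 listed col genes some were left out by the filter on low counts, and of those tested 58 (56.3%) fell and 10 (9.71%) rose, with a median of -0.92. Steep falls were col-139 (-5.25), col-39 (-3.80), col-81 (-3.17), col-92 (-6.56) and col-133 (-4.41). The tested col genes were mostly scarce, with a median level of 0.564 CPM in H28O16.1 and 1.16 CPM in L4440. All 156 summed to 2269.2 to 2605.5 CPM in H28O16.1 and 2160.5 to 2937.1 CPM in L4440, which overlap. With no filter on low counts 17 rose. Of 55 tested hedgehog-related and patched-related genes, a family of secreted proteins and receptors expressed largely in epidermis, 8 rose and 13 fell, with grl-1 (2.53) higher and grl-7 (-3.19) and grl-16 (-3.27) lower. Among 16 genes of muscle attachment 5 rose and 1 fell, with atn-1 (0.29) and zyx-1 (0.32) higher and the integrin gene pat-3 (-0.35) lower. The rises numbered 10 without H28O16.1 replicate 1 or with no filter on low counts and 9 with library totals alone, and 2 fell without H28O16.1 replicate 3.

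Defence genes included large rises in absolute level. The lysozyme gene lys-7 (bases 3481432 to 3482600 of chromosome V, minus strand) stood at 3050.4, 3129.7 and 3388 CPM in the H28O16.1 libraries, against 1312, 1404 and 1494 CPM in the L4440 libraries (log2 fold change 1.18, SE 0.05, adjusted p = 7.55e-10), and its mean was higher by 1786 CPM. The lysozyme gene ilys-5, of the invertebrate type, stood at 383, 357 and 360.2 CPM in H28O16.1 and 785, 896 and 899 CPM in L4440 (log2 fold change -1.23). The saposin-like gene spp-17 stood at 72.9, 67.9 and 51.4 CPM in H28O16.1 and 233, 243 and 199.8 CPM in L4440 (log2 fold change -1.82). Members thus changed in opposite directions without overlap, and over lysozymes and saposin-like proteins 11 rose and 12 fell of 34. Over C-type lectins 31 rose and 31 fell of 117, with clec-41 (0.90) and clec-5 (1.22) higher. The lectin gene clec-266 stood at 18.4, 24.4 and 33.7 CPM in H28O16.1 and 149, 148 and 166 CPM in L4440 (log2 fold change -2.59). The infection response gene irg-7 stood at 664 ± 40.1 CPM in H28O16.1, against 384 ± 3.68 CPM in L4440, and irg-6 at 17.9 ± 3.34 CPM in H28O16.1, against 5.87 ± 0.538 CPM in L4440 (SD, n = 3 each). Other rises with large shifts in level were F55G11.4 and dod-19. The gene F55G11.4 stood at 608, 591 and 603 CPM in H28O16.1 and 248, 241 and 246 CPM in L4440. The gene dod-19 stood at 968, 867 and 855 CPM in H28O16.1 and 551, 523 and 526 CPM in L4440.

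Lysosome and autophagy genes fell more often than they rose. Of 35 such genes 19 fell and 7 rose, and 18 fell with any 1 library left out. Besides sepa-1 and epg-2, the membrane protein genes lmp-1 (-0.87) and scav-3 (-0.64) and the autophagy genes epg-7 (-0.75) and atg-16.1 (-0.89) fell. Among cathepsin genes 9 rose and 9 fell of 22. The cysteine protease gene cpr-5 stood at 9.43, 8.16 and 7.63 CPM in the H28O16.1 libraries, against 55.7, 56.3 and 42.8 CPM in the L4440 libraries (log2 fold change -2.62, SE 0.11, adjusted p = 4.5e-10). The aspartic protease genes asp-13 (-1.12) and asp-3 (-0.59) fell, and cpz-1 (0.35), asp-5 (0.28) and cpl-1 (0.22) rose.

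Abundant mRNAs mostly changed by small factors but many counts, with lea-1 changing by a larger factor. The yolk protein gene vit-2 stood at 14447 ± 691 CPM in H28O16.1, against 11869 ± 185 CPM in L4440, and the gene far-2, of a fatty acid and retinol binding protein, at 3274 ± 459 CPM in H28O16.1, against 2252 ± 141 CPM in L4440 (SD, n = 3 each). The yolk protein gene vit-4 was lower, at 626 ± 41.6 CPM in H28O16.1, against 1118 ± 28.2 CPM in L4440. The rise of vit-6 (0.12) was lost without H28O16.1 replicate 3, L4440 replicate 1 or L4440 replicate 3. The rise of the cytosolic Hsp70 gene hsp-1 (0.10) was lost without H28O16.1 replicate 1, L4440 replicate 1 or L4440 replicate 3. The gene lea-1, of a protein of desiccation tolerance, stood at 325, 307 and 344 CPM in H28O16.1 and 1116, 1169.5 and 1183 CPM in L4440 (log2 fold change -1.83, SE 0.04, adjusted p = 3.26e-12). The genes cgh-1 (-0.48), car-1 (-0.78), cey-2 (-0.39) and ifet-1 (-0.81), of RNA-binding proteins of oocytes, fell. The elongation factor gene eef-1A.1 stood at 12462, 11067 and 10943 CPM in H28O16.1 and 13396, 13785 and 12821 CPM in L4440 (log2 fold change -0.21).

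Further rises by fold were in scarcer mRNAs. The gene comt-4, of a catechol O-methyltransferase family, stood at 11.1, 9.85 and 10.2 CPM in H28O16.1 and 2.97, 2.75 and 4.58 CPM in L4440 (log2 fold change 1.59). The gene cpt-3, of a carnitine palmitoyltransferase family, stood at 14.2, 17.2 and 21.6 CPM in the H28O16.1 libraries, against 4.95, 7.22 and 7.74 CPM in the L4440 libraries (log2 fold change 1.41). The gene cex-1, related to calexcitin, stood at 11.5, 11.6 and 11.8 CPM in H28O16.1 and 4.70, 4.63 and 4.45 CPM in L4440 (log2 fold change 1.34). All H28O16.1 libraries lay above all L4440 libraries in these genes, even where H28O16.1 libraries spread widely, as in cpt-3. The genes F59C12.4, F23A7.4, Y73B3A.4, F48E3.2, F49F1.7, C09F5.1, C25E10.10, F54D11.3 and C36C9.10 rose by 1.35 to 1.57 on the log2 scale, also without overlap.

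Other genes among the largest changes belonged to various groups. Steep rises were C07G1.7 (5.84), M116.2 (2.26), W07E6.5 (1.76), F57H12.6 (1.65), oac-14 (1.64), pdfr-1 (2.13), of a neuropeptide receptor, nhr-6 (2.08), of a nuclear receptor, and ins-7 (1.78), of an insulin-like peptide. Steep falls were tbx-38 (-6.37), of a T-box factor, fbxb-17 (-5.04), fbxc-28 (-3.79), col-129 (-4.74), of a cuticle collagen, sdz-28 (-4.44) and vet-6 (-4.43). Large rises by CPM were far-1 (0.73), of a fatty acid and retinol binding protein, rpl-11.1 (0.31) and rps-14 (0.34), of ribosomal proteins, and hsp-6 (0.35), of the mitochondrial Hsp70. Large falls by CPM were COX1 (-0.84), of a cytochrome c oxidase subunit encoded in mitochondrial DNA, cpg-2 (-0.46), of an eggshell proteoglycan, and cyn-7 (-0.49), of a cyclophilin.

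The library kit does not mark strand, so reads of overlapping genes on opposite strands cannot be told apart. Genes on the other strand covered 34.5% of the exon bases of W07E6.5, 19.2% of sip-1, 18.2% of tbh-1, 16.2% of ins-34, 15.6% of F48E3.2, 14.9% of kqt-1, 12.2% of clec-266 and 11.04% of comt-4, and under 10% of each other gene named here. Genes on the same strand covered 22.7% of mes-6 and 12.5% of pro-3, and under 10% of each other named gene, leaving aside sdz-27.

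The changes were unevenly spread over the chromosomes. On X, 16.07% of 2085 tested genes rose and 36.1% fell. On the autosomes between 24.8% and 30.8% rose and between 26.1% and 34.3% fell. Falls over 4-fold took 7.94% of the genes on chromosome II (204 of 2569) and 2.39% to 3.72% of those on each other nuclear chromosome. Of these 204 genes, 65 were fbx, skr, math, bath or btb genes, and 53 of the 94 tested fbxb genes lie on chromosome II. Without those families 5.76% of the genes on chromosome II fell over 4-fold, against 2.19% to 3.29% on the others. The shares were looked at after values had been seen and carry no test.

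**Figure D5:**
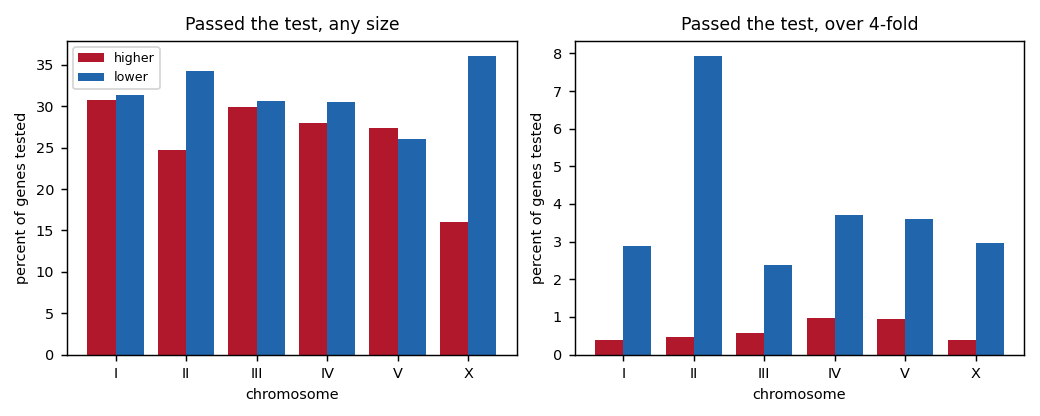
Percent of tested genes on each chromosome that were higher (red) or lower (blue) in H28O16.1 than in L4440, for all genes that passed the test (left) and for those that also changed over 4-fold (right). Of the 6 chromosomes drawn, X has the lowest share of higher genes and II the highest share of falls over 4-fold, 7.94%.

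H28O16.1 was also tested against the B0395.3 libraries. There 9158 genes (62.6%) differed, with 4466 (30.5%) higher and 4692 (32.1%) lower in H28O16.1. In B0395.3 against L4440, 3976 genes (27.2%) differed, with 1836 (12.6%) higher and 2140 (14.6%) lower in B0395.3. These comparisons share libraries with the main one, so values are set side by side without a measure of their likeness.

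Embryo markers and fbxb genes were mostly low in H28O16.1 against B0395.3 as well. Of the 33 tested embryo markers 27 were lower in H28O16.1 than in B0395.3 and 3 higher. Of the same markers 11 were higher and 4 lower in B0395.3 than in L4440. Of 94 fbxb genes 92 were lower and 0 higher, with a median log2 difference of -3.92, and 62 were higher and 0 lower in B0395.3 than in L4440. The gene dsl-2 stood at 2.90, 2.54 and 2.54 CPM in H28O16.1, against 58.2, 62.9 and 61.2 CPM in B0395.3 (log2 difference -4.51). The gene zip-8 stood at 2.51, 2.29 and 2.84 CPM in H28O16.1, against 55.6, 50.6 and 57.4 CPM in B0395.3 (log2 difference -4.41). Among spliceosome genes 29 were lower in H28O16.1 than in B0395.3 and 3 higher. Among nucleolus genes 13 were higher and 2 lower in H28O16.1 than in B0395.3, and 12 were higher and 0 lower in B0395.3 than in L4440.

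Some energy genes were also set against B0395.3. The log2 differences of H28O16.1 from B0395.3 were 2.66 for aldo-1, -0.60 for aldo-2, 1.48 for ldh-1, 1.95 for argk-1 and 3.11 for gpdh-1, and all passed edgeR's test. B0395.3 itself was lower than L4440 in gpdh-1 (-1.51) and aldo-1 (-0.39), which enlarges their differences. In the glycolysis list 13 genes were lower and 0 higher in B0395.3 than in L4440, so falls there were not particular to H28O16.1. Among cuticle collagen genes 50 were lower and 4 higher in B0395.3 than in L4440. The lysozyme gene lys-7 stood at 3050.4, 3129.7 and 3388 CPM in H28O16.1, against 2300.5, 2185 and 2227 CPM in B0395.3 (log2 difference 0.51), and B0395.3 itself exceeded L4440 (0.67). The yolk protein gene vit-4, lower in H28O16.1 than in L4440, was higher in H28O16.1 than in B0395.3 (0.55). Of the 30 flp genes 2 were higher and 1 lower in H28O16.1 than in B0395.3, and 5 were higher and 0 lower in B0395.3 than in L4440. The gene flp-10 stood at 7.78, 7.31 and 7.61 CPM in H28O16.1, against 5.67, 6.45 and 7.88 CPM in B0395.3 (log2 difference 0.18, adjusted p = 0.16).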

How the data were processed

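Poly(A) RNA of 9 whole-worm samples was made into libraries with a TruSeq RNA v2 kit, which does not mark strand, per the labels' protocols. The authors' deposited table holds whole-number read counts per gene of the worm genome WBcel235, not normalized. Per the submitters' processing notes, the tools were STAR 2.4.1d, featureCounts 1.4.6-p4 and bcl2fastq 1.8.4. Their settings are not stated there. A second deposited table, of RPKM values, was not used. Of 46748 genes in the count table, 14622 passed edgeR's filter (minimum count 10) and 32126 did not.

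Counts of all 9 libraries were fitted in 1 model with edgeR 4.0.16 (R 4.3.3), using TMM scaling and the quasi-likelihood test, two-sided, with 6 residual degrees of freedom. P-values were adjusted over all tested genes by Benjamini-Hochberg and called under 0.05. "Rose" and "fell" mean called higher or lower in H28O16.1. The common biological coefficient of variation was 4.64%. CPM values use the TMM-scaled library sizes, and gene positions and lengths come from the Ensembl annotation of WBcel235. Totals of 31236614 to 40990685 counts in the 9 libraries limit precision mainly for genes under 1 CPM. The scripts were tested on simulated counts.

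Alternatives were median-of-ratios scaling, library totals alone, DESeq2 1.42.0, no filter, only the compared libraries, and each library left out. Named genes were taken from the target, the 25 largest rises and falls by fold at a mean of at least 5 CPM and the 15 largest by CPM difference, all called and without overlap, and in each list the 6 smallest p-values, or any member where 25 or fewer were tested. Members of the families said to be picked later, and sdz-27, named for its share of the embryo marker sum, lie outside this rule. The comparison, the lists and the rule were chosen with earlier results of these data known. With 3 against 3 libraries a permutation test of 1 gene cannot go below 0.1, so single genes were not tested that way.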

Additional observations from a re-analysis of the deposited data

How the results depend on the processing

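The number of genes changed in H28O16.1 against L4440 was 7652 to 8578 with any 1 library left out and 7696 to 8908 under the other settings, beside 8417 in the full fit. The number of genes changed in H28O16.1 against B0395.3 was 8355 to 9255 and 8374 to 9661, beside 9158. Rises made up 45.8% of the changed genes in the full fit, 48.2% with median-of-ratios scaling, 53.3% with library totals alone, 47.1% with DESeq2 and 47.6% with no filter on low counts, and 44.5% to 46.2% with 1 library left out. The median log2 fold change of all genes was 0.0479 with library totals alone and 0.013 with median-of-ratios scaling, beside -0.0042 in the full fit. Of 880 named and listed genes, 809 to 857 kept their direction and their side of the threshold under the other settings, and 814 to 834 did so with 1 library left out. The changes that turned round were those of the muscle genes unc-54 and unc-52, to -0.267 and -0.215 without H28O16.1 replicate 3, where both passed the test as falls. With any 1 library left out unc-54 lay between -0.267 and 0.219 and unc-52 between -0.215 and 0.112. The cause was not tested. No paired analysis was possible because the labels give no replicate numbers shared between groups. Genes under 1 CPM, such as most fbxb and msp genes in H28O16.1, rest on few reads.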

Other observations

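Some gene families outside the lists moved mostly one way in H28O16.1 against L4440. They were picked after their values had been seen, so the counts are descriptions with no test of the family, beside 26.3% higher and 31.2% lower among all genes tested. Of 14 nspc genes, a nematode family of small secreted peptides that lies on chromosome X, 13 rose and 0 fell, and the 13 include nspc-10, at 42.6, 44.2 and 42.4 CPM in the H28O16.1 libraries, against 27.3, 31.9 and 31.96 CPM in the L4440 libraries. The rise of nspc-4 (0.15) was lost in 3 of 6 fits that left out a library. Of 11 nspg genes 8 rose and 0 fell, with nspg-13 at 154, 141 and 128.96 CPM in H28O16.1 and 93.8, 90.0 and 88.6 CPM in L4440. Of 12 galectin genes (lec), which encode sugar-binding proteins, 10 rose and 0 fell, with lec-5 at 151, 162 and 202 CPM in H28O16.1 and 106, 109.6 and 104.3 CPM in L4440, where H28O16.1 replicate 3 was the highest library. Of 47 transthyretin-related genes (ttr) 27 rose and 2 fell. Of 8 fatty acid and retinol binding protein genes (far) 5 rose and 1 fell, and of 8 infection response genes (irg) 5 rose and 2 fell. Close copies in these families can share reads.

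All 14 tested T-box genes fell, from tbx-38 (-6.37) to tbx-9 (-0.23). The fall of tbx-2 (-0.40) passed in only 1 of the 6 fits that left out a library. Against B0395.3 all 14 were lower in H28O16.1 as well, and 6 of the 14 were higher in B0395.3 than in L4440.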
